A study of Ovis aries with 7 samples.

Results

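The 7 genes described here are GFAP, AQP4, GJA1, GLI3, IRAG1, SLC39A12 and LGI1, which were chosen by symbol among the 26479 features of the count tables. Each symbol belonged to 1 feature, namely ENSOARG00020025675 (GFAP), ENSOARG00020025374 (AQP4), ENSOARG00020021600 (GJA1), ENSOARG00020010338 (GLI3), ENSOARG00020014539 (IRAG1), ENSOARG00020005721 (SLC39A12) and ENSOARG00020017577 (LGI1). Nuclei from frozen anterior striatum of 12 sheep, all 5 years old, were profiled by single nuclei RNA-seq, in which each captured transcript molecule is counted once by its unique molecular identifier (UMI). The OVT73 sheep (6 animals) belong to a transgenic line that carries full-length human HTT cDNA with an expanded polyglutamine tract, a model of Huntington's disease, and the 6 controls did not carry it. The transgene is driven by human genomic sequence from directly upstream of HTT. Nuclei of 2 sheep were pooled in each of OVT73 libraries 1 to 3 and control libraries 3 and 4, while control libraries 1 and 2 came from a single sheep each. The library was the replicate (3 OVT73 and 4 control), since nuclei of pooled sheep were kept together. The questions were where these genes are expressed, how they vary among astrocytes and whether they differ between OVT73 and control.

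Astrocytes are glial cells of the brain that clear glutamate and potassium from the extracellular space, couple to each other through gap junctions and wrap blood vessels with their endfeet. They are not uniform: GFAP, an intermediate filament protein, is abundant in some astrocytes and scarce in others, and its increase is a classical sign of astrocyte reactivity. AQP4 is the water channel of the endfoot membrane, and GJA1 encodes connexin 43, the main gap junction protein of astrocytes. GLI3 is a transcription factor of the hedgehog pathway, IRAG1 is a substrate of the cGMP-dependent kinase that associates with the IP3 receptor, SLC39A12 is a zinc importer, and LGI1 is a secreted protein that binds ADAM22 and ADAM23 at synapses.

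The libraries held 35272 barcodes and 20887378 to 70473426 UMIs each, and 32599 nuclei were kept. Pairs of libraries shared 2 to 20 barcode sequences. Clusters were made without the 7 genes and named from marker lists that do not contain them. Of the nuclei kept, 2109 (6.47%) were astrocyte-like, 124 to 693 per library, with a median of 2686 UMIs. They lay in 2 clusters. One was led by the glutamate transporter gene SLC1A2 and held 906 nuclei with a median of 3991.5 UMIs, and 17 of the 20 astrocyte markers in the files were raised in it. The other was led, among genes with a symbol, by DTHD1 and held 1203 nuclei with a median of 1985 UMIs, and 16 of the 20 markers were raised in it. The astrocyte-like share of all kept nuclei was higher in OVT73 libraries, at 7.92% ± 1.29 (SD, n = 3), against 4.81% ± 1.12 (SD, n = 4) for controls (exact permutation p = 0.0286, two-sided, the smallest that 35 splits of 3 against 4 libraries allow). Oligodendrocyte-like nuclei, the largest class, went the other way, with 45.6%, 39.4% and 40.2% of kept nuclei in OVT73 libraries 1 to 3. In control libraries 1 to 4 their share was 47.9%, 54.8%, 54.8% and 47.4%. The microglia-like share was, like the astrocyte-like share, higher in every OVT73 library (9.16%, 9.05% and 11.8%) than in any control library (7.64%, 8.83%, 7.67% and 8.25%). Shares of classes within a library depend on each other, and the part of this in the astrocyte-like share was not tested.

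All 7 genes had their highest level in astrocyte-like nuclei among the 7 named classes that every library filled with 10 or more nuclei. Levels are UMIs of a gene per 1000000 UMIs (CPM), summed over the nuclei of a library and class, and are compared only within a gene, since gene length was not used. Because the classes came from clustering the same nuclei, these levels are a description without a test. For each gene the lowest astrocyte-like library lay above the highest library of the class that came second.

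GFAP was at 364 CPM in the lowest, 674 in the median and 936 in the highest of the 7 astrocyte-like libraries, with a mean of 664 ± 212 (SD, n = 7). The second class was neuroblast-like with 22.9 CPM, a 29.0-fold lower mean, which rested on 1 library at 111 CPM beside a median of 8.53. AQP4 was at 248 CPM in the lowest, 346 in the median and 402 in the highest astrocyte-like library, 13.4-fold above the neuroblast-like mean of 23.9 CPM. GJA1 was at 26.2, 58.0 and 99.5 CPM in the lowest, median and highest library, 33.4-fold above the neuroblast-like mean of 1.87 CPM, which rested on 4 UMIs. These 3 classical astrocyte genes thus differed in spread between libraries, GJA1 varying most in relative terms and AQP4 least. GJA1 also had only 446 UMIs in all astrocyte-like nuclei. With the 7 genes left in the clustering, the second class was OPC-like for GFAP and oligodendrocyte-like for GJA1.

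GLI3 was at 1175 CPM in the lowest, 1482 in the median and 2109.8 in the highest astrocyte-like library, 30.9-fold above its mean in OPC-like nuclei (oligodendrocyte precursor cells, 49.0 CPM). IRAG1 was at 138, 226 and 329 CPM and SLC39A12 at 144, 237 and 268 CPM in the lowest, median and highest library. For both the second class was interneuron-like, at 2.47 CPM for IRAG1 (91.5-fold lower) and 2.27 CPM for SLC39A12 (96.6-fold lower). Among the 7 classes in this order, these 2 genes had the widest gap between astrocyte-like nuclei and the next class. The interneuron-like levels rested on 16 UMIs of IRAG1 and 18 of SLC39A12.

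LGI1 had the narrowest gap among the same 7 classes. Its astrocyte-like level was 797 CPM in the lowest, 1203 in the median and 1505 in the highest library, 6.66-fold above the mean of MSN-like nuclei (medium spiny neurons, 182 CPM). It was nearly level over 4 further classes, with means of 182 ± 37.5 (SD, n = 7) in MSN-like, 177 ± 41.4 in neuroblast-like, 173 ± 31.0 in OPC-like and 119 ± 16.5 in interneuron-like nuclei, and the first 3 of these did not differ beyond their spread. Oligodendrocyte-like and microglia-like nuclei had 4.72 and 4.27 CPM of LGI1. The vascular-like class, with 86 nuclei and as few as 4 in a library, was left out of this order. It held 47 UMIs of GLI3 and 13 of IRAG1 (means of 340 and 53.1 CPM), and no UMI of SLC39A12 or LGI1. Over the libraries GLI3 ran there from 76.3 to 717 CPM and IRAG1 from 0 to 179 CPM. For GLI3, IRAG1 and GJA1 (5 UMIs, mean 10.9 CPM) the vascular-like mean lay above that of the second class given. The gaps of these genes thus hold only without this class.

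**Figure D1:**
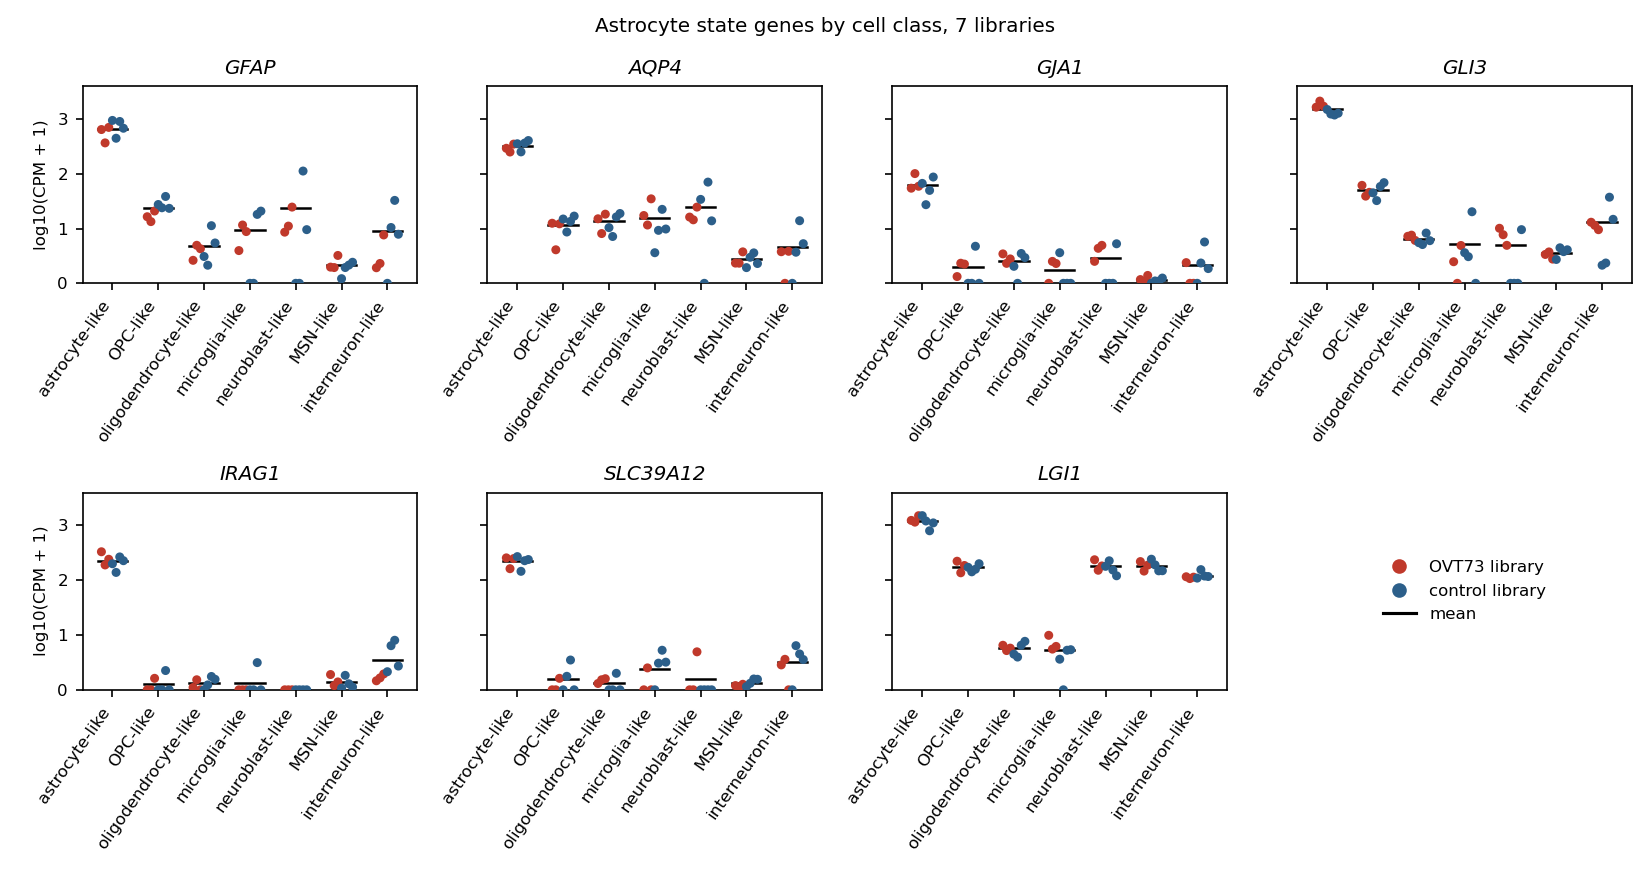
Level of each of the 7 genes (y axis, log10 of CPM + 1) in 7 cell classes (x axis); each point is 1 library, red for OVT73 and blue for control, and the bar is the mean over the 7 libraries on the CPM scale. In every panel the astrocyte-like points lie above those of all other classes, and LGI1 alone has 4 further classes near or above 100 CPM.

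To compare shares of nuclei, each nucleus was thinned at random to 1000 UMIs, and 114 astrocyte-like nuclei below that depth were left out. At this depth 63.6% of astrocyte-like nuclei held a GLI3 UMI, 61.2% an LGI1 UMI, 41.3% a GFAP UMI, 27.0% an AQP4 UMI, 16.1% an IRAG1 UMI, 15.5% an SLC39A12 UMI and 6.68% a GJA1 UMI (means of 7 libraries). Microglia-like nuclei served as the measure of free RNA, and their shares at the same depth ran from 0.0336% for GJA1 to 1.33% for AQP4, with 0.706% for GFAP. Without thinning the GFAP shares were 63.2% and 1.18%, at median depths of 2686 and 1412.5 UMIs. GFAP in OPC-like nuclei, at 2.08% of thinned nuclei, and GLI3 in OPC-like nuclei, at 4.29%, lay above the microglia-like shares of 0.706% and 0.199%.

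Within the astrocytes, 4 of the 7 genes were lower in the DTHD1-led cluster in all 7 libraries, and GFAP and GJA1 were not. These values are again a description, because the clusters were made from the same nuclei. The share of all genes that were lower there in every library was not counted. IRAG1 differed most, with 326 CPM in the SLC1A2-led and 92.5 CPM in the DTHD1-led cluster, a mean log2 ratio of -1.78 ± 0.59 (SD, n = 7). GLI3 had 1990.3 and 908 CPM (log2 ratio -1.15 ± 0.36), LGI1 1460.0 and 913 CPM (-0.71 ± 0.27) and SLC39A12 264 and 168 CPM (-0.69 ± 0.50). AQP4 was at 362 and 272 CPM and was lower in the DTHD1-led cluster in 6 of 7 libraries. GFAP, at 597 and 749 CPM, was lower there in 1 library, and GJA1, at 59.3 and 66.4 CPM, in 2.

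**Figure D2:**
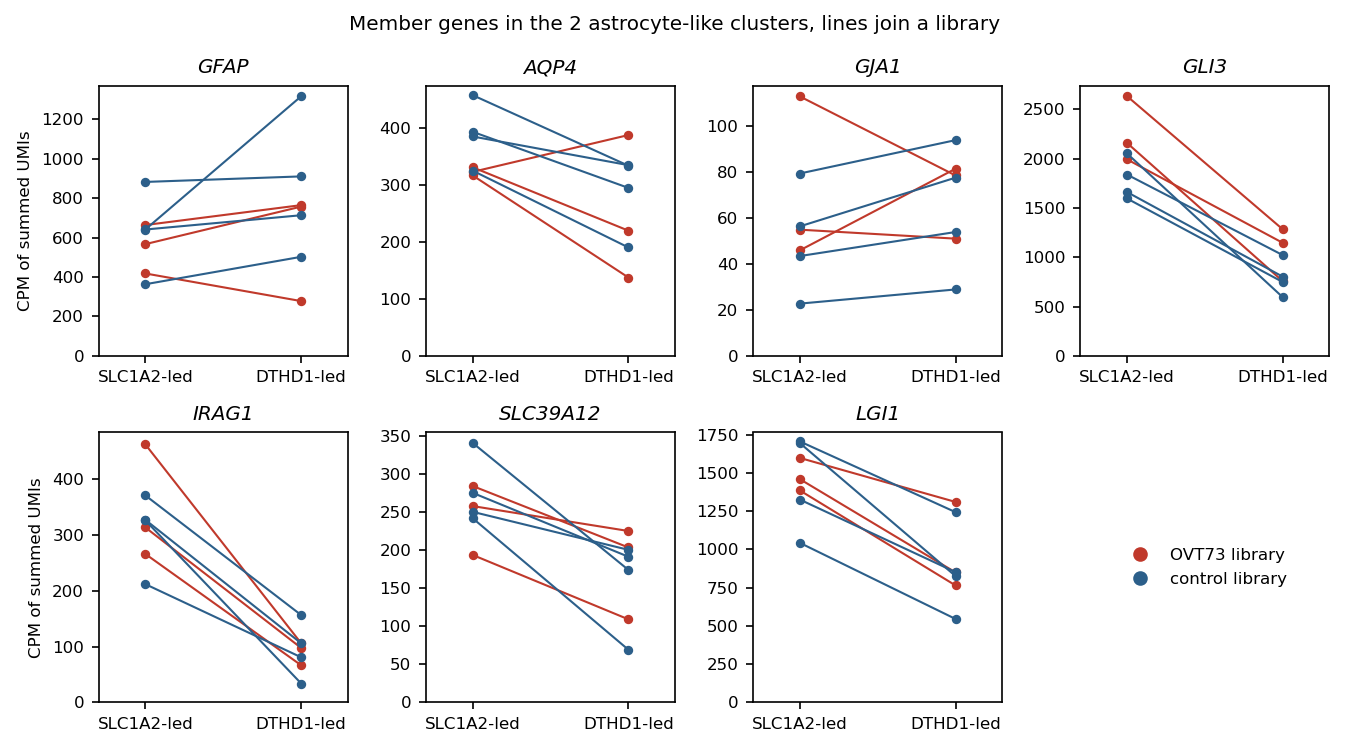
Level of each gene in CPM (y axis) in the SLC1A2-led and DTHD1-led astrocyte-like clusters (x axis); each line joins the 2 values of 1 library, red for OVT73 and blue for control. All 7 lines fall for GLI3, IRAG1, SLC39A12 and LGI1, and most rise for GFAP and GJA1.

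The DTHD1-led cluster was itself not uniform. At a finer clustering resolution most of it fell into 2 subsets, of which the larger (832 nuclei) kept all 7 genes and had the highest GFAP level of any astrocyte group, 975 CPM ± 380 (SD, n = 7). In this GFAP subset AQP4 was at 344, GJA1 at 85.2, and SLC39A12 at 230.3 CPM, while IRAG1, at 129 CPM, GLI3, at 1106 CPM, and LGI1, at 1153 CPM (log2 ratio -0.36 ± 0.20, SD, n = 7), were still below the SLC1A2-led cluster in all 7 libraries. The smaller subset (367 nuclei), led by DTHD1 and NWD2, had markers of both astrocytes and OPCs raised and met no class name at that resolution. In it GFAP was at 154 CPM, AQP4 at 72.0, GLI3 at 358 and LGI1 at 251, and 8 UMIs of GJA1 were found. IRAG1 and SLC39A12 were nearly missing from this subset, with 2 and 3 UMIs over all its nuclei. The cluster mean of these 2 genes thus came almost wholly from its larger subset.

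For some pairs, nuclei with a UMI of 1 gene more often held the other, and for others they did not. Over the thinned astrocyte-like nuclei, AQP4 was detected in 34.3% of nuclei with a GFAP UMI and 21.04% of those without, higher in 7 of 7 libraries, and LGI1 in 70.1% and 55.4%, also in 7 of 7. IRAG1 was detected in 20.3% of nuclei with a GLI3 UMI and 9.04% of those without, and SLC39A12 in 19.2% and 9.18%. Both were higher in 7 of 7 libraries. GJA1 was mixed. IRAG1 was detected in 18.9% of nuclei with a GJA1 UMI and 15.9% of those without, higher in 3 of 7 libraries, and GLI3 and SLC39A12 were higher in 4 of 7 each. LGI1 was detected in 78.0% of nuclei with a GJA1 UMI and 60.2% of those without, higher in 6 of 7. GJA1 itself was found in 9.58% of nuclei with an AQP4 UMI against 5.50%, and in 7.99% with a GFAP UMI against 5.55%, each in 6 of 7. The shares differed by cluster. For IRAG1 in nuclei with and without a GLI3 UMI they were 28.8% against 25.1% in the SLC1A2-led cluster, higher in 5 of 7 libraries. In the DTHD1-led cluster they were 8.64% against 4.71%, in 6 of 7. For SLC39A12 in nuclei with and without a GLI3 UMI they were 21.6% against 10.9% (5 of 7) in the SLC1A2-led cluster. In the DTHD1-led cluster the SLC39A12 shares were 16.1% against 8.84% (7 of 7). Within the DTHD1-led cluster the GFAP contrast was 33.9% against 15.0% for AQP4 and 65.2% against 41.1% for LGI1, in 7 of 7 libraries each. Within the SLC1A2-led cluster it was 34.8% against 29.8% for AQP4, in 5 of 7 libraries, and 75.0% against 75.2% for LGI1. Correlations of thinned counts across nuclei were weak for every pair, at most r = 0.19 over all 1995 nuclei (GFAP and AQP4), and nuclei of a library share its depth and free RNA.

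By the Pearson correlation of log2(CPM + 1) over 26 clusters of at least 50 nuclei, the genes most like each of the 7 were sought among those with at least 100 astrocyte UMIs. For GFAP these were ASB3 (r = 0.94), MLC1 (0.92) and RFX2 (0.92). MLC1 encodes a membrane protein of astrocyte endfeet. For AQP4 they were MT2, a metallothionein (0.94), SMIM7 (0.91) and ENSOARG00020017413 (0.91), and for GJA1 NID1 (0.90), CLDN10 (0.90) and ADIRF (0.90). The pattern of GLI3 was nearest to LOXL1 (0.93), CCDC80 (0.90) and SCARA3 (0.88), and that of IRAG1 to ENSOARG00020004583 (0.92), the Notch target HES1 (0.92) and YAP1 (0.92). SLC39A12 had the closest matches, ACSM5 (0.96), TTLL8 (0.96) and SLCO1C1, a thyroid hormone transporter (0.95), and LGI1 was nearest to RFX4 (0.94), SLC1A4 (0.93) and ENSOARG00020020917 (0.91). These correlations describe 26 points that share libraries and were given no p.

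To compare astrocytes by GFAP, the 1995 thinned nuclei were split into GFAP-negative (0 GFAP UMIs in 1000), GFAP-high (3 or more) and those between (1 or 2). There were 1189 GFAP-negative nuclei (59.6%), 648 between (32.5%) and 158 GFAP-high (7.92%). The counts fell off smoothly with no gap at the threshold, and 284 nuclei had 2 or 3 UMIs, next to it. GFAP-high nuclei numbered 58, 4 and 23 in OVT73 libraries 1 to 3 and 28, 5, 24 and 16 in control libraries 1 to 4. Of the GFAP-high nuclei 31.6% were in the SLC1A2-led cluster, against 43.0% of the GFAP-negative, and their median depths before thinning were 2308.5 and 2809 UMIs. Over all their UMIs the GFAP-high nuclei had 1926 to 3329 CPM of GFAP per library and the GFAP-negative nuclei 114 to 355 CPM, which is what the split selected. A nucleus called GFAP-negative is thus one with no GFAP UMI at this depth and may hold the transcript.

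**Figure D3:**
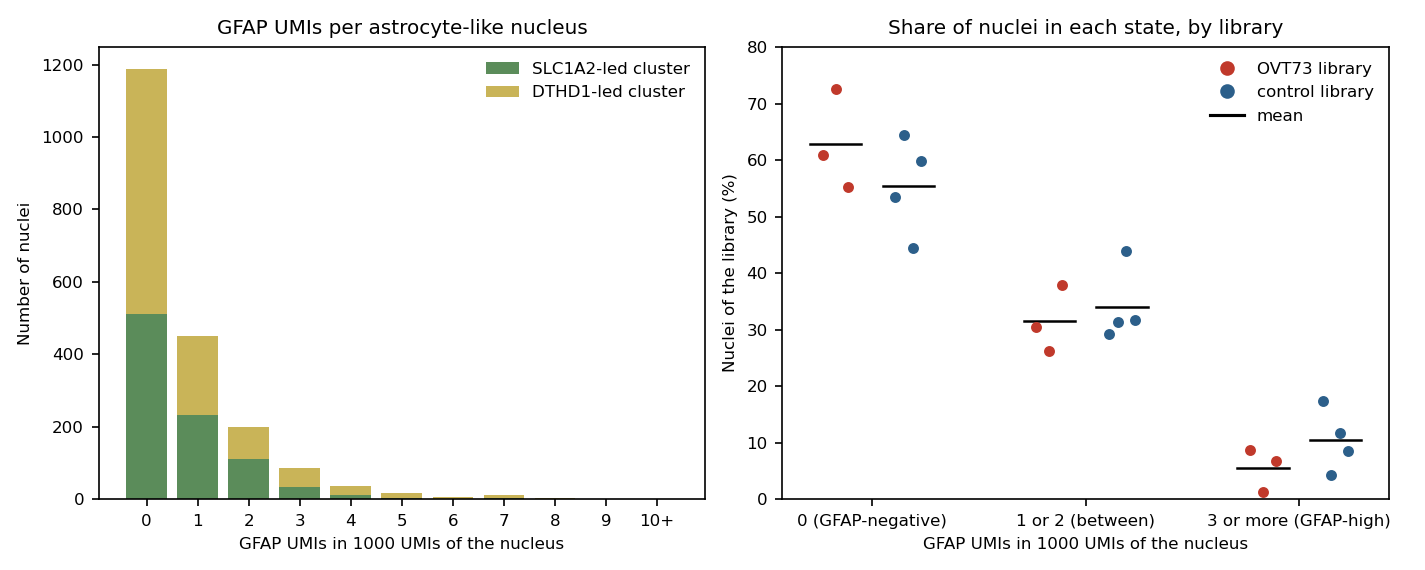
Left, number of astrocyte-like nuclei (y axis) by GFAP UMIs in 1000 UMIs (x axis), stacked by cluster; right, percent of the nuclei of each library (y axis) in the 3 GFAP states (x axis), red for OVT73, blue for control, bars for group means. The counts decline from 1189 nuclei at 0 without a gap, and the OVT73 and control points overlap in each state.

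GFAP-high nuclei held more AQP4, the water channel, than GFAP-negative nuclei of the same library. In GFAP-negative nuclei AQP4 was at 269, 279 and 354 normalized CPM (scaled by TMM factors) in OVT73 libraries 1 to 3 and at 268, 202, 333 and 405 in control libraries 1 to 4. In GFAP-high nuclei it was at 682, 311 and 703 in the OVT73 and 908, 527, 896 and 714 in the control libraries. It was higher in 7 of 7 libraries, as were 1.59% of all genes tested, by 1.21 on the log2 scale (SE 0.18, edgeR quasi-likelihood test with library as a block, Benjamini-Hochberg adjusted p = 1.72e-09). Of all 3593 genes tested, 90 (2.5%) were higher and 132 (3.67%) lower in GFAP-high nuclei. OVT73 library 2 showed the smallest gain, and its GFAP-high value rests on 4 nuclei and 4 AQP4 UMIs.

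LGI1 was the only other of the 6 genes past the threshold, at a log2 difference of 0.43 (SE 0.14, adjusted p = 0.0444), higher in 6 of 7 libraries. Its normalized CPM ran from 776 to 1688 (median 1377) in GFAP-negative and from 844 to 2377 (median 1936) in GFAP-high nuclei, so that the ranges overlapped widely. The call was lost when any 1 of OVT73 libraries 1 to 3 or control libraries 1, 3 and 4 was left out (adjusted p = 0.0714 to 0.162), and without control library 2 it was 0.00739. Without the DTHD1/NWD2 subset, also left out after seeing the data, the LGI1 difference was 0.18 (adjusted p = 0.672), while AQP4 kept a difference of 0.99 (adjusted p = 2.45e-06).

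The remaining members did not pass the test. GJA1 differed by 0.61 (SE 0.33, adjusted p = 0.358) and was higher in 5 of 7 libraries. IRAG1 differed by 0.52 (SE 0.21, adjusted p = 0.132) and SLC39A12 by 0.51 (SE 0.21, adjusted p = 0.156), higher in 5 and 6 of 7 libraries. GLI3 differed by -0.11 (SE 0.14, adjusted p = 0.836), with a mean of 1686 ± 472 CPM (SD, n = 7) in GFAP-high and 1850.4 ± 439 CPM in GFAP-negative nuclei, and it was higher in 3 libraries and lower in 4.

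**Figure D4:**
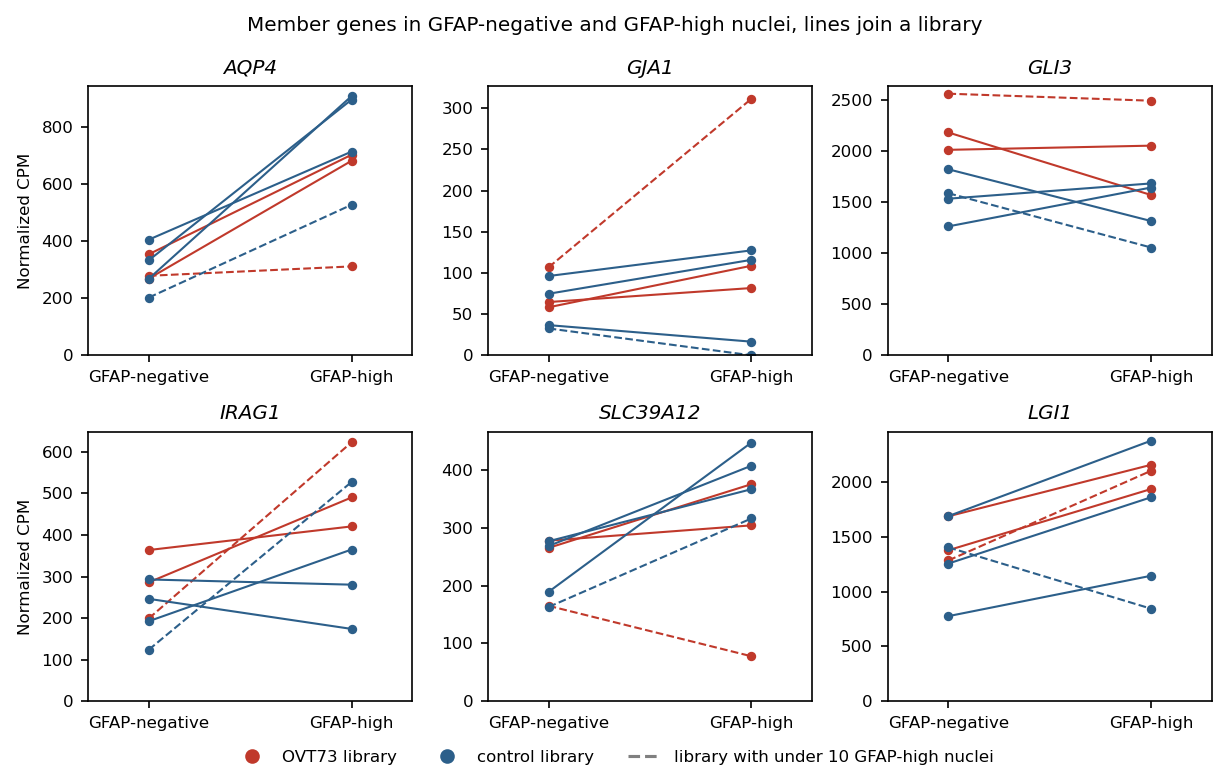
Normalized CPM (y axis) of the 6 genes other than GFAP in GFAP-negative and GFAP-high nuclei (x axis); each line joins the 2 values of 1 library, red for OVT73 and blue for control, dashed for the 2 libraries with under 10 GFAP-high nuclei. AQP4 rises in all 7 libraries, LGI1 and SLC39A12 in 6, and GLI3 in 3.

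The same test was run within each cluster, a choice made after seeing the data. Within the DTHD1-led cluster GFAP-high nuclei had more AQP4 (log2 difference 2.05, adjusted p = 1.25e-11), SLC39A12 (1.31, adjusted p = 0.000408), IRAG1 (1.195, adjusted p = 0.0160) and LGI1 (0.85, adjusted p = 0.00581), where 4.9% of 2470 genes were higher and 4.57% lower. Within the SLC1A2-led cluster AQP4 differed by 0.63 (adjusted p = 0.182), IRAG1 by 0.51, LGI1 by 0.21 and SLC39A12 by 0.03, none past the threshold among 1520 genes, of which 7 (0.461%) were higher and 22 (1.45%) lower. In the SLC1A2-led cluster GFAP-high nuclei numbered only 15, 4 and 9 in the OVT73 and 7, 1, 8 and 6 in the control libraries. In the DTHD1-led cluster they numbered 43, 0 and 14 in the OVT73 and 21, 4, 16 and 10 in the control libraries. OVT73 library 2 thus gave no comparison of states there. Fewer genes passed the filter in the SLC1A2-led cluster, and the difference between the clusters was itself not tested. The DTHD1-led cluster includes the DTHD1/NWD2 subset, in which all 7 genes were low.

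Among other genes, those higher in GFAP-high nuclei in every library and with the smallest p were MT1A, CNTN1, TRPM3, AQP4, MARCH3, ST6GALNAC3, GALNT18, ENSOARG00020009196, DGKG and ATP13A5. MT1A, a metallothionein that binds zinc and copper, was at 703 CPM in GFAP-high and 222 CPM in GFAP-negative nuclei (log2 difference 1.77, adjusted p = 1.18e-17). Within the SLC1A2-led cluster MT1A differed by 0.44 (adjusted p = 0.686) and the adhesion gene CNTN1 by 0.44 (adjusted p = 0.674), and within the DTHD1-led cluster by 2.26 and 1.42 (adjusted p = 4.8e-15 and 4.32e-07). TRPM3, a cation channel gene, was at 8488 and 4656 CPM (0.84, adjusted p = 7.11e-10), and it was also past the threshold within each of the 2 clusters. Those lower included GRM7, DOCK10, KCNH7, GRIK2, GRM8, LRRTM3, PEX5L, DACH1 and NEDD4L. GRM7 (1103 ± 1322 CPM, SD, n = 7) and DOCK10 (656 ± 763 CPM) varied widely between libraries in GFAP-negative nuclei. Without nuclei that held oligodendrocyte marker UMIs, GRM7, DOCK10, GRM8, LRRTM3 and PEX5L no longer passed the filter on low counts. Neither did MARCH3, ENSOARG00020009196 and ATP13A5, while KCNH7, GRIK2, DACH1 and NEDD4L stayed lower and past the threshold. GRIK2, a kainate receptor subunit, was at 856 and 2682 CPM (-1.34, adjusted p = 3.19e-14), and without the DTHD1/NWD2 subset its difference was -0.10 (adjusted p = 0.886). The potassium channel gene KCNH7 likewise went from -2.33 to -0.57 (adjusted p = 0.406) without that subset. With GFAP-high set from 2 UMIs, DOCK10 (-0.99, adjusted p = 0.181) and PEX5L (-0.85, adjusted p = 0.454) did not pass. NEDD4L, a ubiquitin ligase, was at 415 and 1141 CPM (-1.29) and was lower in each of the 2 clusters.

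Markers of other cell types moved with the GFAP states, oligodendrocyte markers most often. Of 16 such markers in the files 7 were tested, and 6 were lower in GFAP-high nuclei, among them the myelin genes MOBP and OPALIN. Their summed level was 715 to 9013 CPM over the libraries in GFAP-negative and 506 to 3281 CPM in GFAP-high nuclei. At least 1 marker was at 0 UMIs in the GFAP-high nuclei of each library, from 2 of 16 in OVT73 library 1 and control library 3 to 13 of 16 in OVT73 library 2. Of 5 OPC markers tested, VCAN and SOX6 were higher in GFAP-high nuclei, and the summed OPC level was 1641 to 2260.2 CPM in GFAP-negative and 1331 to 2822 CPM in GFAP-high nuclei. Of 5 general neuron markers NRXN3 and RBFOX1 were lower (sums of 592 to 1223 and 145 to 1209 CPM), and of 2 interneuron markers GRIP1 was higher (sums of 299.9 to 607 and 492 to 847 CPM). The part of these markers in the members' differences was not tested beyond the oligodendrocyte genes. Without nuclei that held oligodendrocyte marker UMIs, an alternative chosen after seeing the data, 68 genes were called in place of 222, AQP4 differed by 1.21 (adjusted p = 9.03e-06) and LGI1 by 0.41 (adjusted p = 0.241).

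Gene lists for the pathways of the members were counted in the same comparison, beside a median log2 difference of -0.04 over all 3593 genes. Of 7 endfoot and junction genes tested, DTNA, which encodes dystrobrevin alpha of the endfoot complex, was higher (0.49, adjusted p = 0.00347), the laminin gene LAMA2 was lower (-1.92, adjusted p = 2.98e-08), and the list's median was 0.24. LAMA2 was also among the 10 leading genes of 2 oligodendrocyte-like clusters and of the vascular-like cluster. Oligodendrocyte markers were lower in the GFAP-high nuclei as well. The part of either class in the LAMA2 difference was not tested. Of 8 pan-reactive genes TNC, an extracellular matrix glycoprotein, was higher (0.83, adjusted p = 0.00605), with a list median of 0.50, and FKBP5 (0.20, adjusted p = 0.719) and CD109 (0.47, adjusted p = 0.226), the most abundant of the list, did not pass. VIM, the only other intermediate filament gene tested, was at 75.2 CPM in GFAP-high and 83.6 CPM in GFAP-negative nuclei (-0.05, adjusted p = 0.969). Of 10 glutamate and potassium genes, SLC1A2 (-0.46, adjusted p = 0.00981) and the metabotropic receptor GRM3 (-0.70, adjusted p = 0.0248) were lower, with a list median of -0.20. SLC1A2 also leads the cluster that held 31.6% of the GFAP-high and 43.0% of the GFAP-negative nuclei. The part of the clusters in its difference was not tested.

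Around GLI3, 1 of 9 hedgehog genes was lower, the co-receptor CDON (-0.78, adjusted p = 0.0341), and the 2 most abundant, DISP1, which releases hedgehog ligands, and the receptor GPR161, differed by 0.37 and 0.27 (adjusted p = 0.227 and 0.527), with a list median of -0.03. Around IRAG1, 2 of 6 cGMP and IP3 receptor genes were lower, the phosphodiesterase PDE1A (-0.88, adjusted p = 0.00017) and the IP3 receptor ITPR1 (-1.22, adjusted p = 0.0151), and the kinase PRKG1 was at 0.41 (adjusted p = 0.0504), with a list median of 0.13. Around SLC39A12, 1 of 5 zinc genes, MT1A, was higher, and the metallothionein MT3 and the zinc importer SLC39A10 differed by 0.37 and -0.13 (adjusted p = 0.302 and 0.894), with a list median of 0.12. No gene of the LGI and ADAM receptor list passed the filter on low counts here.

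OVT73 and control libraries were then compared on the UMIs of all astrocyte-like nuclei. None of the 7 genes differed past the threshold in edgeR's quasi-likelihood test over 8390 genes (adjusted p = 0.999 each), in which 0 genes (0%) were called and 378 (4.51%) had an unadjusted p under 0.05. DESeq2 called 0 genes as well. Values are given in the order OVT73 libraries 1 to 3, then control libraries 1 to 4, as normalized CPM, and each exact p is of a two-sided permutation test of the difference in means.

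GLI3 was the gene with the clearest separation. It was at 1678, 2246 and 1750.1 in the OVT73 and at 1498, 1256, 1186 and 1293 in the control libraries, so that every OVT73 library lay above every control library. The log2 fold change was 0.53 (SE 0.15, adjusted p = 0.999, exact p = 0.0286). A gap of this kind with OVT73 higher was found for 257 of the 8390 genes (3.06%), and one with OVT73 lower for 201 (2.4%), with GLI3 at place 34 of all genes by its model p. Without a filter on low counts 14 genes were called and GLI3 had an adjusted p of 0.0779.

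Within each cluster the GLI3 groups overlapped. In the SLC1A2-led cluster GLI3 was at 2299, 2879 and 2105 in the OVT73 and at 1922, 2219, 1662 and 1743 in the control libraries, a log2 fold change of 0.37 (SE 0.16, exact p = 0.0857). In the DTHD1-led cluster it was at 802, 1388 and 1201 in the OVT73 and at 1089, 630.2, 809 and 846 in the control libraries, a log2 fold change of 0.42 (SE 0.24, exact p = 0.2). The cluster with the higher GLI3 level held 45.8% ± 2.31 (SD, n = 3) of OVT73 and 37.8% ± 8.77 (SD, n = 4) of control astrocyte-like nuclei (exact permutation p = 0.2). OPC markers, summed over the astrocyte-like nuclei, were at 1652 to 1986 CPM in the OVT73 and 2045 to 2112 CPM in the control libraries. MSN markers separated the groups the other way, at 2353 to 2575 CPM in the OVT73 and 1957 to 2321 CPM in the control libraries. The sums of the other 8 lists for other cell types overlapped between the groups, and the part of any of them in the GLI3 values was not tested.

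GFAP did not separate the groups. It was at 655, 387 and 717 in the OVT73 and at 947, 453, 904 and 687 in the control libraries, with a log2 fold change of -0.35 (SE 0.28, exact p = 0.314). The lowest values, 387 in OVT73 library 2 and 453 in control library 2, came from 1 library of each group. AQP4 was at 298, 264 and 355 in the OVT73 and at 355, 255, 364 and 409 in the control libraries (-0.19, SE 0.18, exact p = 0.429). GJA1 was at 54.8, 106 and 59.6 in the OVT73 and at 66.3, 26.9, 49.0 and 87.6 in the control libraries (0.29, SE 0.34, exact p = 0.486). The highest GJA1 value was that of OVT73 library 2, and without it the fold change was -0.04.

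IRAG1 was at 338, 201 and 247 in the OVT73 and at 201, 141, 267 and 230.3 in the control libraries (0.31, SE 0.22, exact p = 0.314). SLC39A12 was at 261, 172 and 254 in the OVT73 and at 271, 148, 228 and 242 in the control libraries (0.03, SE 0.21, exact p = 0.83), and the sign of this difference changed with several settings. LGI1 was at 1265, 1219 and 1542 in the OVT73 and at 1522, 1232, 803 and 1131 in the control libraries (0.20, SE 0.20, exact p = 0.343). For all 3 genes the groups overlapped, and control library 2 was the lowest for IRAG1 and SLC39A12.

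**Figure D5:**
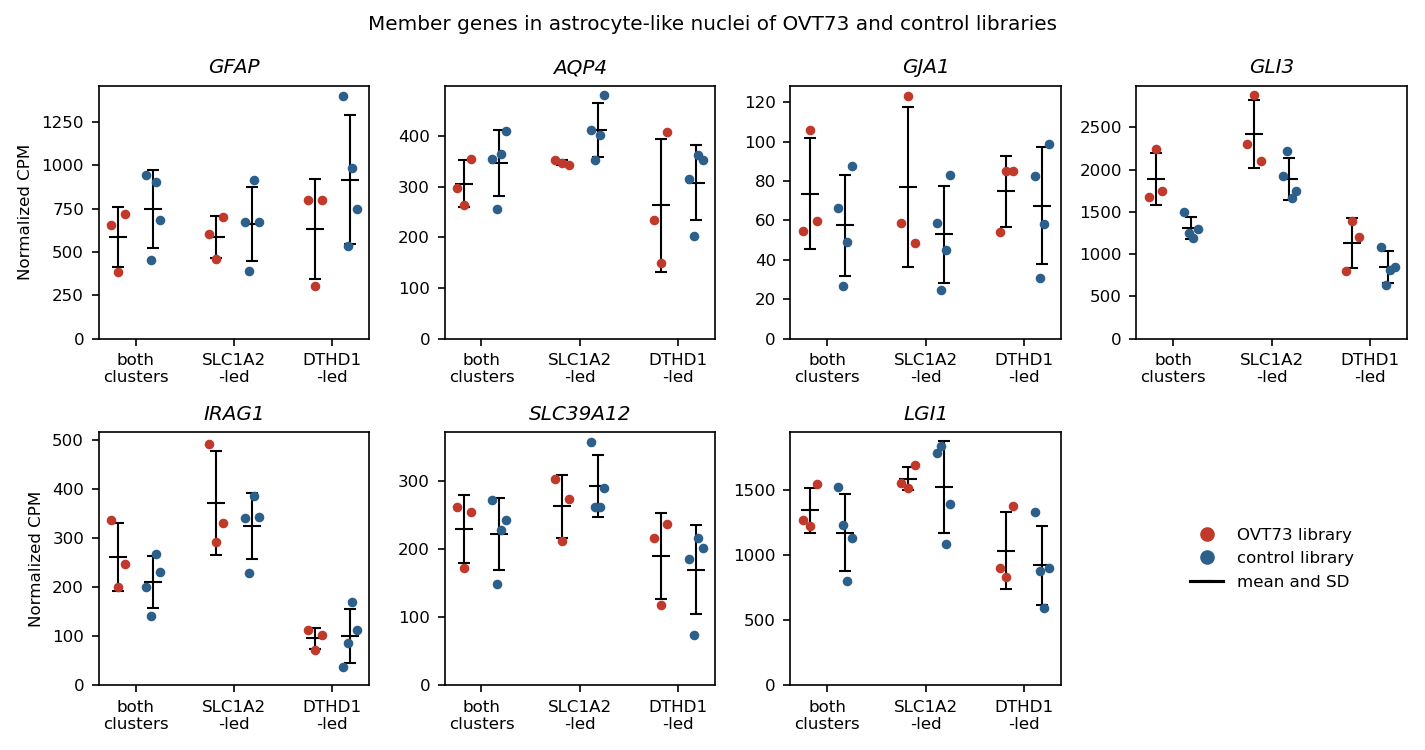
Normalized CPM (y axis) of the 7 genes in all astrocyte-like nuclei and in each of the 2 clusters (x axis), with red points for the 3 OVT73 and blue points for the 4 control libraries and black bars for mean and SD. The groups overlap in every panel and cluster except for GLI3 over both clusters together.

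The share of astrocyte-like nuclei in each GFAP state did not separate the groups either. GFAP-high nuclei were 8.72%, 1.25% and 6.76% of thinned nuclei in OVT73 libraries 1 to 3 and 17.4%, 4.35%, 11.7% and 8.47% in control libraries 1 to 4, a difference of -4.90 percentage points (exact permutation p = 0.257). GFAP-negative nuclei were 60.9%, 72.5% and 55.3% in the OVT73 and 53.4%, 64.3%, 44.4% and 59.8% in the control libraries, a difference of 7.41 points (exact permutation p = 0.343). The OVT73 effect on the other 6 genes was compared between GFAP-high and GFAP-negative nuclei by an interaction term, and 0 of 4713 genes (0%) were called by edgeR, with 138 at an unadjusted p under 0.05. The differences of the effects ran from -0.57 (SLC39A12, SE 0.44) to 0.67 (GJA1, SE 0.68), with an adjusted p of 0.999 for each of the 6.

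In the pathway lists 0 genes were called between OVT73 and control in edgeR's test. The numbers tested were 9 endfoot and junction, 6 intermediate filament, 14 pan-reactive, 13 glutamate and potassium, 18 hedgehog, 10 cGMP and IP3 receptor, 14 zinc, and 4 LGI and ADAM receptor genes. Their median log2 fold changes lay between -0.16 (cGMP and IP3 receptor) and 0.13 (glutamate and potassium), beside -0.02 over all genes. For the hedgehog list 9 genes were above and 9 below 0, with its most abundant members DISP1 at -0.44 (SE 0.20) and GPR161 at -0.06 (SE 0.15). For the pan-reactive list 7 were above and 7 below 0, with FKBP5 at -0.09 (SE 0.25) and CD109 at -0.15 (SE 0.20). PRKG1 and ITPR2, the most abundant cGMP and IP3 receptor genes, were at -0.00360 (SE 0.19) and 0.00840 (SE 0.15), and the zinc-binding genes MT3 and MT1A at -0.28 (SE 0.31) and -0.77 (SE 0.31). DLG4 and ADAM22 of the LGI and ADAM receptor list were at 0.71 (SE 0.33) and -0.25 (SE 0.42). SLC1A3, a glutamate transporter (0.32, SE 0.14), and UTRN, the dystrophin relative utrophin (0.23, SE 0.13), each had an exact permutation p of 0.0286. This is the smallest p that the splits of these libraries allow, and edgeR's adjusted p was 0.999 for both genes. Such a p needs full separation of the groups. Of all 8390 genes tested, 3.06% were separated with OVT73 higher and 2.4% with OVT73 lower.

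In the other classes GFAP, AQP4, GLI3 and LGI1 had enough UMIs for a test in oligodendrocyte-like, OPC-like and MSN-like nuclei, GLI3 and LGI1 in interneuron-like and LGI1 in neuroblast-like nuclei. None was called between OVT73 and control (edgeR), and GJA1, IRAG1 and SLC39A12 passed the filter on low counts in none of these classes. Some tested levels lay below those of microglia-like nuclei, the measure of free RNA. These were GFAP in oligodendrocyte-like and MSN-like nuclei (3.82 and 1.12 against 8.31 CPM) and GLI3 in MSN-like nuclei (2.56 against 4.18 CPM). AQP4 was lower in oligodendrocyte-like, OPC-like and MSN-like nuclei (12.4, 10.8 and 1.75 against 14.5 CPM). The remaining tested levels lay above their microglia-like means. The share of all genes with an unadjusted p under 0.05 was 3.34% in interneuron-like, 3.89% in microglia-like, 3.96% in MSN-like, 4.1% in neuroblast-like, 5.25% in oligodendrocyte-like and 6.71% in OPC-like nuclei. GFAP in OPC-like nuclei was at 15.9, 13.4 and 20.4 normalized CPM in the OVT73 and at 26.1, 23.4, 35.7 and 22.2 in the control libraries, lower in each OVT73 library than in any control library. The fold change on the log2 scale was -0.68 (SE 0.25, adjusted p = 0.679, exact permutation p = 0.0571). In this class 1 of 9023 genes (0.0111%) was called, and 3.54% of genes had all OVT73 libraries below all control libraries. LGI1 in MSN-like nuclei was at 231, 157 and 188 in the OVT73 and at 234, 189, 133 and 148 in the control libraries, which overlapped (0.12, SE 0.20, exact permutation p = 0.629). LGI1 in OPC-like nuclei (0.19, SE 0.15) and in neuroblast-like nuclei (0.21, SE 0.28) had positive fold changes as in astrocyte-like nuclei, and in interneuron-like nuclei it was at -0.11 (SE 0.16), with none past the threshold.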

How the data were processed

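The authors deposited raw UMI counts per gene and barcode from 10x Genomics libraries, aligned to the sheep genome Oar_rambouillet_v1.0, with Cell Ranger 7.0.0 and STAR 2.7.2a named in the submitters' processing notes. Nuclei with 200 to 7500 genes and at most 5% mitochondrial UMIs were kept (33957 of 35272), and the 4% of each library with the highest doublet scores (1358) were removed, because the automatic threshold marked 9. Nuclei were clustered on 3000 variable genes without the 7 genes described (scanpy 1.11.5, 30 components, Harmony, 20 neighbours, Leiden resolution 1). A class name needed at least 3 markers raised by over 1 on the log2 scale, a rule chosen once cluster profiles were known. UMIs were summed per library and class and fitted with edgeR 4.0.16 (quasi-likelihood, TMM factors, low-count filter, Benjamini-Hochberg adjustment, threshold 0.05) in R 4.3.3. DESeq2 1.42.0, leaving out each library, other filters, thinning depths and clusterings were the alternatives. Single values were compared by exact permutation of libraries. The fits of OVT73 against control in astrocyte-like nuclei and of the GFAP states were tested on simulated data with 200 changed genes. For OVT73 against control, 0% of these were recovered at a log2 change of 0.5, 31.5% at 1 and 86% at 2. For the GFAP states the shares were 3.5%, 75.5% and 88%. A change near 0.5 between OVT73 and control could thus go uncalled. Intervals between libraries cover their spread only, and single-sheep and pooled libraries were weighted alike. Library numbers are only names. The 7 genes, the gene lists and the cell type markers were chosen with earlier results of these data known. Genes named between GFAP states were the 10 with the smallest p in each direction that moved the same way in all 7 libraries. One of these genes is not reported here.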

Additional observations from a re-analysis of the deposited data

Results flagged for a closer look

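The log2 ratio of LGI1 between GFAP-high and GFAP-negative nuclei was -0.73 in control library 2, against 0.35 to 0.71 in the other 6 libraries. The value rests on 5 GFAP-high nuclei with 8 LGI1 UMIs. It was the 1 value far from the rest among 62 sets of libraries examined, a lower rate than the 1 in 20 or so that chance alone gives.

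An unnamed cluster of 173 nuclei, with a median of 4691 UMIs, had markers of both microglia and astrocytes raised. It entered none of the comparisons of classes, of GFAP states or of OVT73 and control, but was among the 26 clusters of the gene correlations. Over all its nuclei GLI3 was at 844 CPM, LGI1 at 565, GFAP at 301, AQP4 at 204, IRAG1 at 136, SLC39A12 at 96.0 and GJA1 at 21.3 CPM, each above the 2.91 CPM that a count of 3 UMIs amounts to there. All 7 were above their means in microglia-like nuclei. Doublets of the 2 cell types were not tested as their source.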

How the results depend on the processing

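No paired analysis was possible because the labels give the OVT73 and control libraries no shared replicate numbers. Between OVT73 and control astrocyte-like nuclei, 123 of 133 values of the 7 genes under alternatives kept their sign and side of the threshold. Without a filter on low counts 14 genes were called. The SLC39A12 log2 fold change turned to -0.000115 without TMM factors, -0.014 in the libraries of 2 sheep, at resolution 2 and without the DTHD1/NWD2 subset, and -0.152 in the SLC1A2-led cluster, and IRAG1 to -0.126 in the DTHD1-led cluster. Leaving out 1 library gave -0.10 to 0.20 for SLC39A12, -0.042 to 0.56 for GJA1 and 0.39 to 0.61 for GLI3. In other classes GLI3 in OPC-like nuclei was -0.055 without TMM factors, and leaving out 1 library gave -0.17 to 0.24 there, -0.31 to 0.037 in MSN-like and -0.67 to 0.81 in interneuron-like nuclei. LGI1 then ran from -0.00804 to 0.41 in neuroblast-like, -0.022 to 0.29 in MSN-like, -0.024 to 0.36 in oligodendrocyte-like and -0.18 to 0.023 in interneuron-like nuclei. AQP4 ran from -0.17 to 0.43 in MSN-like and -0.074 to 0.40 in oligodendrocyte-like nuclei, and GFAP from -0.96 to 0.18 in oligodendrocyte-like nuclei. The mean levels behind these AQP4 and GFAP ranges, and behind that of GLI3 in MSN-like nuclei, lay below those of microglia-like nuclei.

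Between GFAP-high and GFAP-negative nuclei AQP4 passed the threshold in 20 of 22 alternatives and LGI1 in 9 of 22. In place of 222 genes and 2 of the 6 described, 73 and 0 were called with GFAP-high from 5 UMIs, 718 and 6 without thinning, 40 and 1 without library as a block, 358 and 1 without a filter, 29 and 0 in the SLC1A2-led cluster, 143 and 1 without the DTHD1/NWD2 subset, and 68 and 1 without nuclei holding oligodendrocyte UMIs. Without thinning the states also differed in depth. GFAP-high nuclei were then deeper than GFAP-negative nuclei in every library except control library 1, with medians of 3977.5 and 2293 UMIs in OVT73 library 1. With the same exception they were more often in the SLC1A2-led cluster, at 56.9% against 23.3% in OVT73 library 1. DESeq2 called 119 genes, another thinning seed left 1 of the 6 and the DTHD1-led cluster gave 4 of the 6. Leaving out 1 library gave 134 (without OVT73 library 1) to 254 genes and 1 to 2 of the 6. GLI3 turned to 0.067 with GFAP-high from 2 UMIs, 0.380 without thinning (adjusted p = 0.0201), 0.00155 with another seed and 0.113 in the DTHD1-led cluster, and IRAG1 to -0.662 from 5 UMIs. The difference in the OVT73 effect turned to 0.020 for GLI3 and 0.145 for SLC39A12 from 2 UMIs, and to 0.059 for AQP4 and -0.111 for LGI1 between clusters. Leaving out 1 library gave -0.26 to 0.091 for GLI3, -0.084 to 0.64 for IRAG1, -0.074 to 0.23 for LGI1 and 0 to 1 genes called (1 without OVT73 library 1). The difference in the share of GFAP-high nuclei stayed below 0 (-6.94 to -1.59 points) and that of GFAP-negative nuclei above 0 (2.33 to 11.4) in 17 alternatives each, none past the threshold. With 1 library left out only 15 or 20 splits remain, so an exact permutation p under 0.05 was not possible there. Setting GFAP-high from 2 or 5 UMIs leaves the GFAP-negative nuclei as they were, so those alternatives repeat the main values for that share. The cause of the changes under all these alternatives was not tested. Depth limits GJA1 most, with 446 UMIs in all astrocyte-like nuclei, and GFAP-high values rest on 158 nuclei. Alternatives by cluster, by subset and by oligodendrocyte UMIs were chosen after seeing the data.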
